A study of Rattus norvegicus and Mus musculus with 39 samples.

Results

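The comparison set the testis of peripubertal rats against the testis of adult rats, in animals that had received corn oil alone. Corn oil was the vehicle of an experiment on MEHP, mono(2-ethylhexyl) phthalate, a phthalate monoester known to injure the testis, so these animals show the difference between the ages without the toxicant. The values came from the authors' deposited table of the age term, and the 13987 genes whose base mean reached 10, of 21654 listed, were taken as its members. The base mean is the average normalized count over all 26 rat libraries. The gene with the lowest base mean inside the limit stood at 10.003 and the gene with the highest one outside at 9.997.

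Both groups held 7 libraries of whole testis of Rattus norvegicus, made from 2000 ng of total RNA and read as Tag-seq, a method that sequences a short tag from each transcript. The peripubertal and the adult rats of these groups were gavaged with corn oil and labelled day 2. The same table was fitted together with 5 libraries of adult and 7 of peripubertal rats that had received 700 mg/kg MEHP in corn oil. The labels give no strain, no age in days and no pooling, and leave out whether separate animals gave the libraries. The p-values therefore reflect only how far libraries spread within groups, which may be in part technical. That spread was estimated per gene over all rat groups of the fit, MEHP groups included. Values of single libraries and their depths were not analysed here. In their place, a level for each group was computed from the base mean and the 3 terms of the authors' model, and this implied level, in normalized counts per library, is what is called a level below. It carries no replicate error of its own, and the error stands with the log2 fold change, as its SE, or with the fold, as a 95% interval computed from that SE.

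In the testis, germ cells divide as spermatogonia, pass through meiosis as spermatocytes, and then reshape as round and elongating spermatids into sperm, whose DNA is packed by transition proteins and protamines. Sertoli cells nurse the germ cells and secrete inhibin and anti-Müllerian hormone, Leydig cells make androgen, and peritubular myoid cells enclose the tubules. The first wave of spermatogenesis runs through puberty, so that the latest germ cell types appear last, while Leydig cells pass from an immature to an adult form. In bulk tissue, fewer cells of a type and less RNA per cell cannot be told apart. Defining genes of the testis were present at both ages, with Ddx4 of germ cells at a level of 2305 in adult and 1772 in peripubertal testis, Clu of Sertoli cells at 7842 and 9936, and Insl3 of Leydig cells at 2256 and 2259.

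At an adjusted p under 0.05, 5649 genes (40.4%) were higher in the peripubertal testis and 5574 (39.9%) were lower in the authors' deposited table, by a Wald test with Benjamini-Hochberg adjustment. These shares are the background for the counts of the gene lists below. The counts of rises and falls were alike but the sizes were not. The called falls reached a log2 fold change of -12.13, with a median of -1.08, and the called rises reached 6.55, with a median of 0.74. A fall of at least 4-fold was called for 1575 genes and a rise of that size for 140. At the far end, 309 genes fell by more than 5 on the log2 scale and 2 rose by as much. A level of at least 100 in the adult testis went with a level under 1 in the peripubertal testis for 29 genes, and the opposite held for 0.

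**Figure D1:**
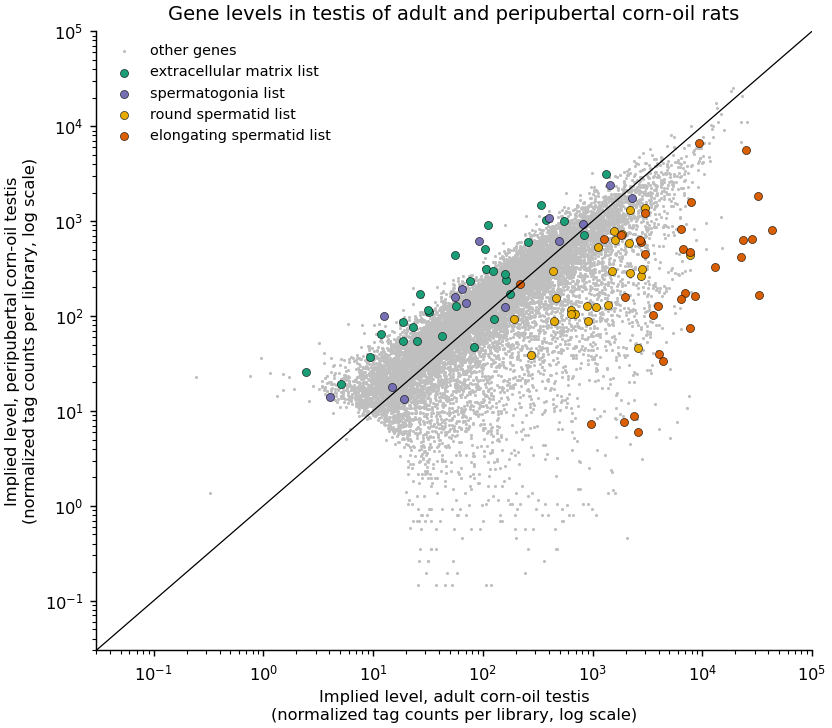
Implied level of each of the 13987 genes in the peripubertal (vertical axis) against the adult corn-oil testis (horizontal axis), both as normalized tag counts per library on log scales; each point is a gene, 4 gene lists are coloured and the line marks equal levels. The 33 elongating spermatid genes lie on or below the line under the authors' scaling, and 26 of the 30 extracellular matrix genes were called higher in the peripubertal testis.

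The summed levels of all genes were 1.59 times higher in the adult than in the peripubertal corn-oil testis. Scaling both ages to equal totals adds 0.67 to every log2 fold change, and 9244 genes were then higher and 3189 lower. A fall smaller than 0.67 on the log2 scale therefore changes its direction under that scaling, and all statements below are relative to the authors' scaling, whose median over all 13987 genes was 0.04. The share of a fixed set of genes does not depend on this choice, but the 2 sets given next were cut under the authors' scaling. The 1575 genes that fell at least 4-fold held 27.8% of the summed levels of the adult testis and 3.89% of those of the peripubertal testis, and the 1629 genes that rose at least 2-fold held 1.59% and 6.22%. These sets were chosen by the same difference, so their shares describe its size only. The libraries of MEHP rats entered the choice through the base mean and the joint fit, but not through the age difference itself. In MEHP rats the shares were 26.4% and 4.01% for the falls, and 1.79% and 6.72% for the rises.

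**Figure D2:**
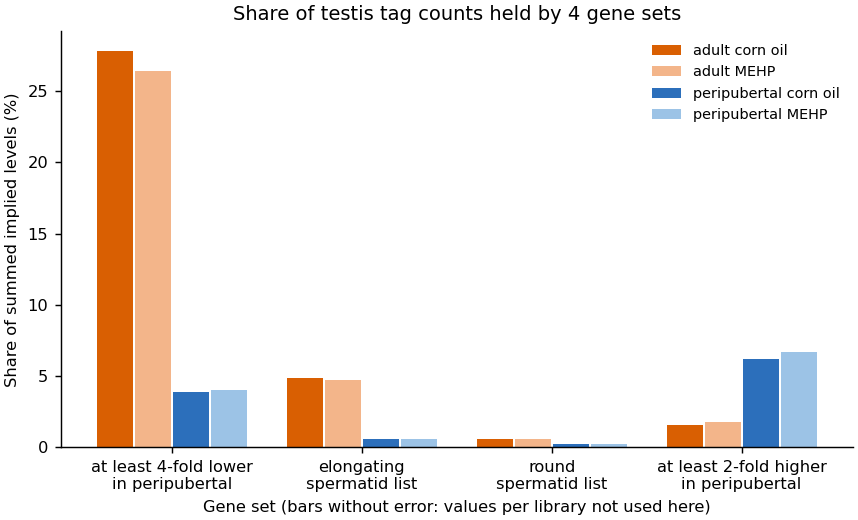
Share of the summed implied levels (vertical axis, percent) held by 4 gene sets in the 4 rat groups; bars carry no error because values of single libraries were not used. The set that fell at least 4-fold holds 27.8% in adult and 3.89% in peripubertal corn-oil testis, and the elongating spermatid list falls beside it from 4.89% to 0.613%.

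Among genes of germ cells before meiosis that reached the base mean limit, levels were mostly higher in the peripubertal testis. Of 24 such genes, 14 reached the limit and 9 were under it, so those 9 are not covered. Of the 14, 10 were higher (71.4%) and 2 lower (14.3%), beside 40.4% and 39.9% of all genes. The median log2 fold change was 0.86. Ccnd2, a D-type cyclin that drives cells into the cycle, stood at 91.4 in adult and 621 in peripubertal testis, 6.79-fold (95% interval 5.91 to 7.81) higher. Ccnd2 belongs to the immature Sertoli and cell cycle lists too, so its rise is not particular to germ cells. Sohlh1, a transcription factor of differentiating spermatogonia, rose from 12.5 to 99.4, 7.96-fold (95% interval 6.07 to 10.4), and its partner Sohlh2 from 64.1 to 193. Dazl, an RNA-binding protein of germ cells, and Stra8, the retinoic acid target that starts meiosis, had log2 fold changes of 1.45 (SE 0.07) and 1.51 (SE 0.15) in the authors' deposited table. Ddx4, an RNA helicase present through much of germ cell life, went the other way at -0.38 (SE 0.06) in the authors' deposited table, a fall that becomes a rise under equal totals. Etv5, the other member called lower, had a log2 fold change of -0.34 (SE 0.13) in the authors' deposited table, which also turns under equal totals.

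Genes of early meiosis were split, with more of them higher. Of 26 genes, 24 reached the limit, 17 were higher (70.8%) and 7 lower (29.2%), and the median was 0.62. Prdm9, the histone methyltransferase that places recombination hotspots, rose from 12.1 to 52.6, 4.34-fold (95% interval 3.24 to 5.8). The synaptonemal complex genes Tex12 and Sycp3 had log2 fold changes of 1.89 (SE 0.14) and 0.85 (SE 0.05) in the authors' deposited table, and the crossover genes Msh4 and Msh5 1.58 (SE 0.20) and 1.61 (SE 0.18). Sycp3 stood at 2888 in adult and 5199 in peripubertal testis. Against this direction, Rec8, a meiotic cohesin subunit, fell from 822 to 203, 4.05-fold (95% interval 3.51 to 4.67) lower, and Syce3, of the central element of the synaptonemal complex, from 851 to 328.

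Genes of pachytene spermatocytes leaned lower under the authors' scaling, with 17 of 25 lower (68%), 6 higher (24%) and a median of -0.69. Under equal totals, however, 11 were higher and 10 lower. Calr3, a germ cell calreticulin of the endoplasmic reticulum, fell from 3306 to 64.4, 51.3-fold (95% interval 38.5 to 68.5). Sox30, a transcription factor that switches on spermatid genes in the mouse, fell 8-fold (95% interval 6.81 to 9.4), and Pgk2, the germ cell phosphoglycerate kinase, fell 5.96-fold (95% interval 5.1 to 6.97). The members that rose were led by Tdrd9 and Piwil2, of the piRNA pathway that silences transposons, with log2 fold changes of 1.17 (SE 0.10) and 1.03 (SE 0.08) in the authors' deposited table.

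Every one of the 25 round spermatid genes that reached the limit, of 27, was lower in the peripubertal testis, with a median of -2.47; under equal totals 23 were lower and 0 higher. Tssk3 and Tssk1b, kinases of the testis-specific serine kinase family, fell from 2574 to 46 and from 7741 to 436. Spaca3, a lysozyme-like protein of the acrosome, fell 10.6-fold (95% interval 8.61 to 13.1), and Sun5, which joins the sperm head to the tail, 10.3-fold (95% interval 8.19 to 12.8). Acrbp, which binds proacrosin in the acrosome, and Crem, a transcription factor that binds cAMP response elements and is needed for spermatid genes in the mouse, fell less, with log2 fold changes of -1.12 (SE 0.08) and -1.32 (SE 0.06) in the authors' deposited table.

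Elongating spermatid genes had the lowest median of the 29 lists. Of 35 genes, 33 reached the limit and 32 were lower, with a median of -5.13 (-4.46 under equal totals), and their share of the summed levels went from 4.89% in adult to 0.613% in peripubertal testis. Tnp1, transition protein 1, which replaces histones in condensing spermatids, stood at 32554 in adult and 168 in peripubertal testis, 194-fold (95% interval 125 to 299.9) lower. Prm2, the protamine that follows it, fell from 8633 to 162, 53.4-fold (95% interval 45.5 to 62.7), and was among the 5 falls with the smallest p. Oaz3, the antizyme of late spermatids, stood at 43228 in adult and 814 in peripubertal testis. Spem1, a spermatid maturation protein, fell from 2609 to 6.06, and Fscn3, a testis fascin, from 1921 to 7.7.

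Tnp2, transition protein 2, stood at 32386 in adult and 1819 in peripubertal testis. Its log2 fold change of -4.15 (SE 1.05) in the authors' deposited table had an SE above those of Tnp1, -7.60 (SE 0.32), and Prm2, -5.74 (SE 0.12). In MEHP rats the same difference was -9.56 (SE 1.16), and the interaction that compares both had an adjusted p of 0.15 by the Wald test with Benjamini-Hochberg adjustment in the authors' deposited table, so the difference between both treatments did not pass. Whether 1 library set the corn-oil value was not tested.

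Promoter windows of 4 of these germ cell genes and of the inhibin subunit gene Inhbb are printed to show where a cAMP response element, TGACGTCA, or a GC box, CCGCCC, lies in them. They are RefSeq sequences of the rat build GRCr8, from 250 bases before to 50 bases after the annotated start, while the counts rest on Rnor_6.0, and the capitals mark the motifs found on either strand. TGACGTCA was in 1.83% of the 33469 windows of the table and CCGCCC in 33.1%. The variants TGACGCAA and TGACGTAA, in 0.496% and 0.807%, and the TATA box TATAAA, in 14.2%, were searched too and are not in these 5 windows. CCGCCC runs that overlap by a base or more were each counted. The Tnp1 window, chr9:82044229-82044528 on the minus strand, holds TGACGTCA from 113 to 106 bases before the start. The Tnp2 window, chr10:5386485-5386784 on the plus strand, holds CCGCCC from 121 to 116 bases before it and no TGACGTCA. Of 3 Crem starts, the window of the third, chr17:58985240-58985539 on the plus strand, holds TGACGTCA from 35 to 28 bases before the start and again from base 40 to base 47 of the transcript. The window of the second start holds TGACGTCA from 56 to 49 bases before it, and that of the first holds 3 copies of CCGCCC and no TGACGTCA. The Sycp3 window, chr7:24761226-24761525 on the plus strand, holds 3 copies of CCGCCC, and the Inhbb window, chr13:33089324-33089623 on the minus strand, 6 copies between 118 and 81 bases before the start.
Tnp1: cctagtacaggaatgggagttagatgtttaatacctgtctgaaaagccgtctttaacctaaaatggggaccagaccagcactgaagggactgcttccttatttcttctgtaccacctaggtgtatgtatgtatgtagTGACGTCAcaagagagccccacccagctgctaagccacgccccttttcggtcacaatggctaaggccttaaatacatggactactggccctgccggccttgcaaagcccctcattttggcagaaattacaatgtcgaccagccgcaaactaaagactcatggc
Tnp2: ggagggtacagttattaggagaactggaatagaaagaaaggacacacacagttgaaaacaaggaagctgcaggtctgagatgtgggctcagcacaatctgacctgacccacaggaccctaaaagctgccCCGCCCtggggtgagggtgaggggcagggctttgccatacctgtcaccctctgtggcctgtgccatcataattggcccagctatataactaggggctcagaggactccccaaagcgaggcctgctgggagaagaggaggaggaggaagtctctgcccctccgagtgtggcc
Crem: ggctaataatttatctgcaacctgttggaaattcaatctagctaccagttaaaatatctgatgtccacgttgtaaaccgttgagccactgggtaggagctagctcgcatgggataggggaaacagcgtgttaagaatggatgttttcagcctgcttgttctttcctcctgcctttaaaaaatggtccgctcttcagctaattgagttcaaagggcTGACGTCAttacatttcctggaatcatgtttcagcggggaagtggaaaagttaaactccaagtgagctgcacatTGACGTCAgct
Sycp3: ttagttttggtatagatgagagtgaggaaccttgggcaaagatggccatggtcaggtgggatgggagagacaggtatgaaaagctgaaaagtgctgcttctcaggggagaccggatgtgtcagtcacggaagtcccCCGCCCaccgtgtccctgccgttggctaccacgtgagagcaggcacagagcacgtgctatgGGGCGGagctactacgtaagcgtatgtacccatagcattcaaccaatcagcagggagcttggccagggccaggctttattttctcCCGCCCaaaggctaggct
Inhbb: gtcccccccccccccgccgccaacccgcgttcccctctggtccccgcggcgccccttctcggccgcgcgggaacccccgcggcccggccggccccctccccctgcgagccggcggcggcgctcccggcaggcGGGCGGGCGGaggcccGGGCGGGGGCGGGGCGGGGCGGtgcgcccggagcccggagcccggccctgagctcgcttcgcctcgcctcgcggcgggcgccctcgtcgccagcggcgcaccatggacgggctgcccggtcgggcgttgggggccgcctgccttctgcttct
In the authors' deposited table, Tnp1, Tnp2 and Crem fell by 7.60, 4.15 and 1.32 on the log2 scale and Sycp3 and Inhbb rose by 0.85 and 0.66, so windows with CCGCCC and no TGACGTCA belong to genes of both directions. A match in a window is a description and not evidence of binding. A count of motifs over all the genes that fell would be void, since 58.6% of the genes that fell by more than 5 have a window.

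Genes of the sperm tail were mostly lower under the authors' scaling. Of 32 genes of the axoneme and flagellum, 28 reached the limit, 25 were lower (89.3%) and 1 was higher (3.57%), with a median of -0.86. Under equal totals 14 were lower and 7 higher. Tekt5, a tektin filament protein of the flagellum, fell from 1062 to 31.7, 33.5-fold (95% interval 27.5 to 40.7). Spag17, of the central pair of the axoneme, and Fsip2, of the fibrous sheath, fell 3.33-fold (95% interval 2.98 to 3.74) and 3.75-fold (95% interval 3.33 to 4.23). Cfap65 was the member that rose, 1.39-fold (95% interval 1.24 to 1.56).

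Genes of sperm energy metabolism were also mostly lower, 14 of 18 (77.8%) with a median of -0.95, and under equal totals 10 were lower and 7 higher. Gapdhs, the glycolytic dehydrogenase of the sperm tail, fell from 12960.2 to 328, 39.5-fold (95% interval 30.8 to 50.6). Atp1a4, the sodium pump subunit of sperm, fell 27.9-fold (95% interval 22.7 to 34.2). Hk1, a hexokinase, fell 7.78-fold (95% interval 6.85 to 8.83), and Ldhc, the germ cell lactate dehydrogenase, fell 2.06-fold (95% interval 1.89 to 2.25). Cyct, the testis cytochrome c, rose 1.44-fold (95% interval 1.35 to 1.53). Ldhc belongs to the pachytene list too, as does Pgk2, and Gapdhs and Hk1 belong to the elongating spermatid list.

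Among 13 genes of histone variants and of chromatin condensation, 8 were lower (61.5%) and 2 higher (15.4%), with a median of -1.06. Both transition protein genes and Prm2 belong to this list too. H1f7, a linker histone of spermatids, fell from 3565 to 102, and Chd5, a chromatin remodeller of spermatids, from 461 to 24.8. H2ac1, a testis H2A histone, rose from 21.5 to 60.5.

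**Figure D3:**
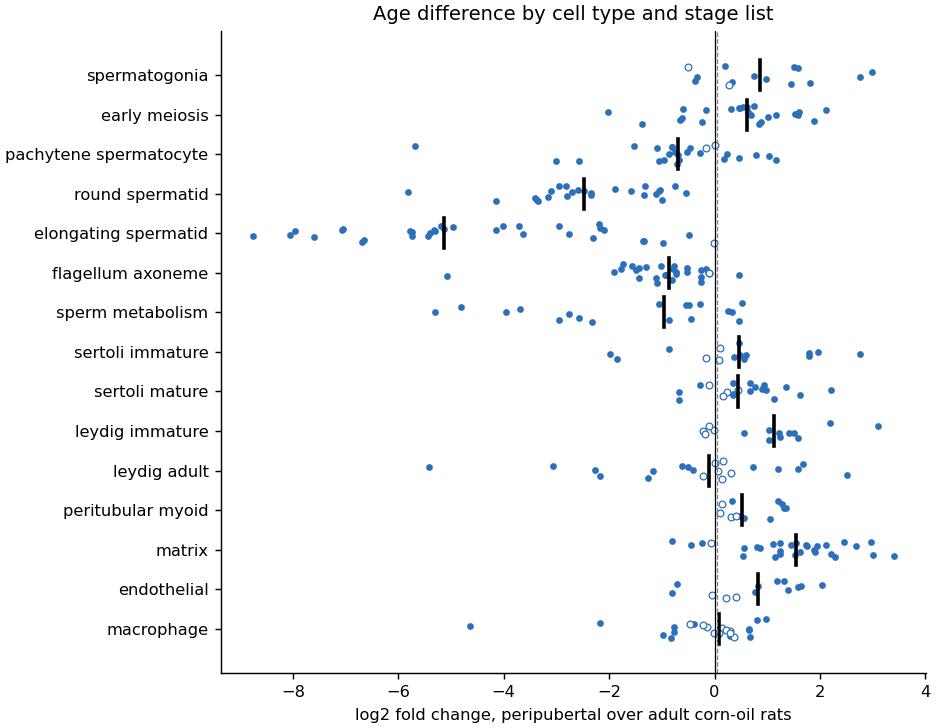
Log2 fold change, peripubertal over adult corn-oil rats (horizontal axis), of each gene of 15 lists; each point is a gene, filled where the adjusted p was under 0.05, the thick bar is the list's median and the dashed line the median of all genes, 0.04. Medians run from 0.86 for spermatogonia through -2.47 for round to -5.13 for elongating spermatids, and the matrix list stands at 1.54.

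The largest falls outside any list were of genes that were nearly without counts in the peripubertal testis. Ceacam6 had the largest of all, from a level of 2061 to 0.46, with a log2 fold change of -12.13 (SE 0.73) in the authors' deposited table. Mlph, a linker of myosin motors to vesicles, went from 1075 to 0.805, Spata32 from 1612 to 1.38, Bpifa3 from 1540.2 to 1.49, and Txndc2, a thioredoxin of the sperm tail, from 909 to 1.03. Azin2, an antizyme inhibitor, and Fam71f2 were at 5074 and 2822 in adult testis and at 5.17 and 3.1 in peripubertal testis. The peripubertal levels of Actl9b, 0.349, and Lamp3, 0.197, were under the 0.429 that 3 counts over 7 libraries would give, so no fold is given for them, beside adult levels of 466 and 244. By the size of the test statistic, the leading falls were of Prm2, Tssk6, Cst8, Clpb and Dcun1d1, with Tssk6, a kinase of postmeiotic germ cells, going from 3304 to 67.6.

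Sertoli cell genes were higher on balance. Of the genes of immature Sertoli cells, 15 of 19 reached the limit, 9 were higher (60%) and 3 lower (20%), with a median of 0.47. Over all genes, 40.4% were higher and 39.9% lower. Amh, anti-Müllerian hormone, rose from 13.5 to 46.5, 3.45-fold (95% interval 2.59 to 4.59), and Lamb2, a laminin of basement membranes, from 78.3 to 269.7. Cdkn1c, an inhibitor of the cell cycle, and the keratin gene Krt8 fell, 3.59-fold (95% interval 3.1 to 4.16) and 3.97-fold (95% interval 2.56 to 6.14). Of the genes of mature Sertoli cells, 21 of 31 reached the limit, with 14 higher (66.7%), 3 lower (14.3%) and a median of 0.45. Inha, the alpha subunit of inhibin, which restrains pituitary follicle-stimulating hormone, rose from 246 to 1132, 4.6-fold (95% interval 4.13 to 5.13), and was among the 5 rises with the smallest p. Shbg, androgen-binding protein, rose 2.57-fold (95% interval 2.31 to 2.87), and Kitlg, the ligand by which Sertoli cells sustain spermatogonia, 3.1-fold (95% interval 2.64 to 3.63). Clu, clusterin, a secreted Sertoli product, differed little, 1.27-fold (95% interval 1.18 to 1.36) higher. Tf, transferrin, was the largest fall of the list, from 2527 to 1577.

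Leydig cell genes are given by the immature and the adult form. Of genes of immature Leydig cells and their stem cells, 14 of 21 reached the limit, 10 were higher (71.4%) and 0 lower, with a median of 1.13. Dlk1, a membrane protein of fetal and stem Leydig cells, rose from 4.17 to 35.9, 8.61-fold (95% interval 5.38 to 13.8). Tcf21, a mesenchymal transcription factor, rose 4.57-fold (95% interval 3.41 to 6.11), and Srd5a1, the steroid 5-alpha-reductase by which immature Leydig cells make androstanediol, 3-fold (95% interval 2.28 to 3.93). Igf1, insulin-like growth factor 1, rose from 266 to 754.

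Of the adult Leydig and steroidogenic genes, 20 of 26 reached the limit, 9 were lower, 5 higher and 6 not called, with a median of -0.11 that turns to 0.56 under equal totals. The lower members made up 45%, near the 39.9% of all genes, and the higher ones 25%, beside 40.4%. Lhcgr, the receptor by which luteinizing hormone drives androgen synthesis, fell from 114 to 13.6, 8.39-fold (95% interval 6.52 to 10.8). Esr1, the estrogen receptor alpha, fell from 29.7 to 0.692, 42.9-fold (95% interval 18.2 to 101). Hsd11b1, which interconverts inactive and active glucocorticoid and marks adult Leydig cells, fell 2.39-fold (95% interval 2 to 2.85), and Ptgds, a prostaglandin D synthase, 4.79-fold (95% interval 4.04 to 5.68). Among the enzymes of androgen synthesis, Cyp17a1, the hydroxylase and lyase that makes androgens, rose from 161 to 915, 5.69-fold (95% interval 3.58 to 9.06), and Hsd3b1, a 3-beta-hydroxysteroid dehydrogenase, from 52.8 to 168, 3.18-fold (95% interval 2.41 to 4.2). Scarb1, the receptor that takes up lipoprotein cholesterol, rose 3-fold (95% interval 2.31 to 3.88). No other gene of androgen synthesis on this list was called higher, so the rises do not cover the whole pathway. Insl3, the peptide hormone of Leydig cells, stood at 2256 in adult and 2259 in peripubertal testis, with a log2 fold change of 0.00 (SE 0.16) in the authors' deposited table, so its 95% interval ran from 0.808 to 1.24 times the adult level.

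**Figure D4:**
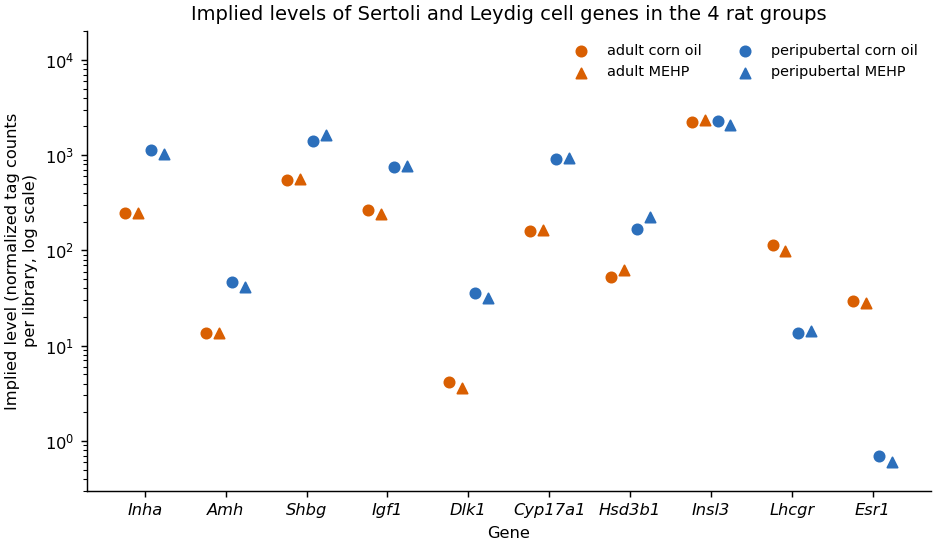
Implied level (vertical axis, normalized tag counts per library, log scale) of 10 Sertoli and Leydig cell genes in adult (orange) and peripubertal (blue) rats given corn oil (circles) or MEHP (triangles); points carry no error because values of single libraries were not used. The peripubertal points lie above the adult ones for Inha through Hsd3b1 and below them for Lhcgr and Esr1, while Insl3 is level at 2256 and 2259 in the corn-oil groups.

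Genes of cholesterol synthesis, which feeds steroid synthesis and is also active in germ cells, did not move together. Of 22 genes, 12 were higher and 7 lower (54.5% and 31.8%), with a median of 0.24. Cyp51, lanosterol demethylase, which spermatids are known to express strongly, fell from 1978 to 289.9, 6.82-fold (95% interval 6.06 to 7.67). Sqle, squalene epoxidase, fell 1.65-fold (95% interval 1.53 to 1.79), whereas Dhcr7, the last reductase of the pathway, rose 2.04-fold (95% interval 1.71 to 2.44).

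Collagens and other matrix genes were mostly higher in the peripubertal testis. Of 34 extracellular matrix genes, 30 reached the limit, 26 were higher (86.7%) and 3 lower (10%), with a median of 1.54. Their summed share of the levels went from 0.0791% to 0.297%. Col3a1 and Col1a2, fibrillar collagens, rose from 113 to 906, 8.05-fold (95% interval 5.54 to 11.7), and from 342 to 1491, 4.35-fold (95% interval 3.32 to 5.72). Eln, elastin, rose 7.86-fold (95% interval 5.48 to 11.3), the basement membrane collagens Col4a2 and Col18a1 rose 6.44-fold (95% interval 4.22 to 9.82) and 4.85-fold (95% interval 4.1 to 5.73), and Sparc, a collagen-binding glycoprotein, rose 2.37-fold (95% interval 2.06 to 2.71). Loxl1, a cross-linking oxidase of elastic fibres, fell 1.75-fold (95% interval 1.4 to 2.18). The collagen gene Col6a1 was lower too, with a log2 fold change of -0.23 (SE 0.08) in the authors' deposited table.

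Of peritubular myoid genes, 12 of 17 reached the limit, 8 were higher (66.7%) and 0 lower, with a median of 0.52. Myl9, a myosin light chain of smooth muscle, rose from 773 to 1888, 2.44-fold (95% interval 2.18 to 2.73), and Cnn1, calponin, 2.55-fold (95% interval 1.94 to 3.34), while Myh11, the smooth muscle myosin heavy chain, rose 1.26-fold (95% interval 1.09 to 1.46). Of endothelial genes, 13 of 19 reached the limit, 8 were higher (61.5%) and 2 lower (15.4%), with a median of 0.82. That median was -0.38 over the members whose base mean reached 50. Cdh5, the endothelial cadherin, rose 3.01-fold (95% interval 2.02 to 4.49), and Tie1, an endothelial receptor kinase, 4.13-fold (95% interval 2.21 to 7.73), but Nos3, endothelial nitric oxide synthase, and Flt1, a receptor of vascular growth factor, fell 1.74-fold (95% interval 1.4 to 2.17) and 1.64-fold (95% interval 1.37 to 1.97).

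Markers of macrophages were mixed, with 6 of 24 higher (25%), 7 lower (29.2%) and a median of 0.08. Both shares were below the 40.4% and 39.9% of all genes. Adgre1 and Mrc1, surface receptors of tissue macrophages, fell 4.52-fold (95% interval 3.77 to 5.43) and 1.97-fold (95% interval 1.71 to 2.27), and Aif1 fell from 4984 to 199, whereas the complement genes C1qa, C1qb and C1qc, which macrophages make, had log2 fold changes of 0.67 (SE 0.19), 0.65 (SE 0.24) and 0.66 (SE 0.21) in the authors' deposited table. The summed share of the macrophage list was 0.118% in adult and 0.0665% in peripubertal testis, but Aif1 set that direction, and without it the share was 0.0436% and 0.0618%. Of 20 markers of other blood cells, 9 reached the limit, 4 were higher (44.4%) and 1 lower (11.1%), and their summed share was 0.0288% and 0.135%. The globin genes Hba-a2 and Hbb-b1 rose from 571 to 1989 and from 991 to 3243, and the part of blood in other results was not tested. These globins, of red cells, set most of the share of other blood cells at both ages. Its rise is therefore not a measure of white cells, and the share without the globins was not computed. Of the 15 markers of epididymis and fat, 11 were under the limit; of the others Cst8, a cystatin that germ cells also express, fell from 3472 to 87.4, and Adipoq, adiponectin, from 217 to 34.1. The summed share of that list was 0.0566% in adult and 0.00403% in peripubertal testis. Cst8 had by far the highest adult level of these genes and so set most of the adult share. The share without Cst8 was not computed.

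Growth genes were higher in the peripubertal testis. Of 23 imprinted and early postnatal growth genes, 13 reached the limit, 11 were higher (84.6%) and 2 lower (15.4%), with a median of 1.56. The largest rise of this list was that of Dlk1, already given among the Leydig genes. Igf2, a growth factor expressed from the paternal allele, rose from 54.7 to 214, 3.92-fold (95% interval 3.39 to 4.53), and Mest and Ndn, also imprinted, rose 4.44-fold (95% interval 3.06 to 6.44) and 3.88-fold (95% interval 3.12 to 4.83). Igf2bp3, an RNA-binding protein of growth mRNAs, fell from 1198 to 217. Of 13 genes of insulin-like growth factor signalling, 8 were higher (61.5%) and 1 lower (7.69%). Igf2r, the receptor that clears IGF2, rose 2.69-fold (95% interval 2.35 to 3.07). Igfbp5 and Igfbp2, which bind the factors, rose 4.28-fold (95% interval 3.22 to 5.68) and 2.85-fold (95% interval 2.31 to 3.52). The germ cell relaxin-like gene Insl6 fell 2.94-fold (95% interval 2.62 to 3.29).

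Of 18 genes of TGF-beta, activin and BMP signalling, 7 were higher and 4 lower (38.9% and 22.2%), beside 40.4% and 39.9% of all genes. The higher share was thus near that of all genes, and the median was 0.20. Among the ligands, Inhbb, the beta B subunit shared by inhibin and activin, rose from 125 to 198, and Bmp8b, a ligand that germ cells make in the mouse, fell from 129 to 1.61, 80.2-fold (95% interval 45.8 to 140.4). Among the receptors, Acvr2b, of activin, rose 3.43-fold (95% interval 2.52 to 4.66), and Tgfbr3, betaglycan, the co-receptor that binds inhibin, fell 8.71-fold (95% interval 6.1 to 12.4).

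Cell cycle genes moved in both directions. Of 25, 15 were higher (60%) and 6 lower (24%), with a median of 0.61. The replication licensing genes Cdt1, Mcm2 and Mcm4 rose 4.98-fold (95% interval 3.44 to 7.2), 3.6-fold (95% interval 2.9 to 4.46) and 3.24-fold (95% interval 2.67 to 3.93). Mcm7, another licensing subunit, fell, with a log2 fold change of -0.20 (SE 0.05) in the authors' deposited table, a direction that turns under equal totals. The cyclins Ccnb1 and Ccne1 and the proliferation marker Mki67 fell, with log2 fold changes of -0.92 (SE 0.10), -1.03 (SE 0.09) and -0.87 (SE 0.06) in the authors' deposited table.

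Of 18 retinoid genes, 8 were higher and 7 lower, which is 44.4% and 38.9% and near the 40.4% and 39.9% of all genes. Rdh10, the dehydrogenase that makes retinal from retinol, fell from 389 to 21.6, 18-fold (95% interval 14.5 to 22.3), and Aldh1a3, which oxidizes retinal to retinoic acid, fell 2.35-fold (95% interval 1.92 to 2.89). Crabp1, a retinoic acid binding protein, rose from 64.5 to 215, and Stra6, the retinol uptake receptor, 1.98-fold (95% interval 1.66 to 2.36). Of 11 hormone receptors, which include Lhcgr and Esr1, 3 were higher and 4 lower (27.3% and 36.4%), with a median of -0.10 that turns to 0.57 under equal totals. Both shares were below those of all genes. Thra and Thrb, the thyroid hormone receptors, went opposite ways, from 10.8 to 44 and from 37.6 to 17.8, and Nr3c1, the glucocorticoid receptor, rose 1.84-fold (95% interval 1.54 to 2.2).

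Of 20 junction genes of the blood-testis barrier and of adhesion, 10 were higher and 6 lower (50% and 30%), with a median of 0.13. Itgb1, an integrin, and Dsp, desmoplakin, rose 2.64-fold (95% interval 2.22 to 3.14) and 2.45-fold (95% interval 2.02 to 2.96), and Nectin3, which spermatids carry at their contact with Sertoli cells, fell from 2209 to 869. Cldn11, the claudin of the Sertoli barrier, rose 1.12-fold (95% interval 1.01 to 1.23). Of 21 piRNA pathway genes, 11 (52.4%) were higher and 8 (38.1%) lower, beside 40.4% and 39.9% of all genes; Tdrd12 rose 2.03-fold (95% interval 1.86 to 2.21) and Gtsf1 fell 3.83-fold (95% interval 3.46 to 4.24). Genes of PPAR targets and fatty acid oxidation were 6 higher (33.3%) and 5 lower (27.8%) of 18, both below the shares over all genes, with a median of 0.06. Of the 17 reference genes, 7 were higher and 7 lower (41.2% each), near those shares, with a median of 0.15.

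Among established genes whose base mean reached 100, the largest rise was of Snrpg, a core protein of the spliceosome, from 23 to 197, 8.55-fold (95% interval 6.36 to 11.5). It was followed by Col3a1, Eln, Ccnd2, Col4a2 and Cyp17a1, already described, and by Tmem132a, Serpinh1, the collagen chaperone, Col18a1, Inha, and Tpm4, a tropomyosin. Tmem132a, Serpinh1 and Tpm4 rose 5.3-fold (95% interval 4.35 to 6.45), 4.98-fold (95% interval 3.71 to 6.69) and 4.53-fold (95% interval 3.24 to 6.33). Among genes of lower base mean the rises were larger but rested on low levels. Olr1049, an olfactory receptor gene, went from 0.949 to 36.4, Lgals5 from 0.758 to 23.5, Emilin3, a matrix glycoprotein, from 1.14 to 24.9, and Scrg1 from 1.52 to 24.5. Cpa1, a pancreatic carboxypeptidase gene, stood at 22.8 in peripubertal testis and at 0.243 in adult testis, under the limit that 3 counts set, so no fold is given. By the test statistic, Anp32b and Cox7c, a subunit of cytochrome oxidase, led the rises with Ccnd2, Inha and Dazl, at 3.03-fold (95% interval 2.74 to 3.35) and 2.18-fold (95% interval 2.03 to 2.33).

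Genes of the X chromosome, which is silenced in spermatocytes, were placed by symbol in RefSeq's annotation, in which 12162 of the genes were found. The 342 X-linked genes had a median log2 fold change of 0.27, while the medians of the 20 autosomes ran from -0.07 to 0.20. Of the X-linked genes, 48% were called higher, against 42.1% of 11812 autosomal genes and up to 48% on a single autosome, and 14% fell at least 4-fold, against 9.48%. Among the autosomes the share that fell at least 4-fold ran from 5.36% to 12.9%. In MEHP rats the X median was 0.37. Akap4, an X-linked anchor protein of the fibrous sheath, chosen after its value was seen, fell from 6464 to 153. These are descriptions, without a test of the X against other chromosomes.

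The same age difference could be had a second time, from the 12 libraries of MEHP rats, which are not those of the corn-oil comparison. It was derived as the sum of the age and interaction terms, with its SE from theirs. In MEHP rats 5473 genes (39.1%) were higher and 5439 (38.9%) lower. Of the 11223 genes called in corn-oil rats, 11113 had the same sign in MEHP rats and 10233 were called with it, which was 91.2% of the corn-oil calls and 93.8% of the MEHP calls. Of the 4597 genes that differed at least 2-fold, 3 had the opposite sign. Across the 13987 genes, which are not independent replicates and came from one fit, Pearson's r between both differences was 0.986. Fkbp4, Hmox1 and Aurkc, all of small change, were called in opposite directions. For the cell type lists, the medians in MEHP rats were -5.01 for elongating spermatids, -2.32 for round spermatids, 0.85 for spermatogonia, 1.68 for the matrix and 1.08 for immature Leydig cells.

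**Figure D5:**
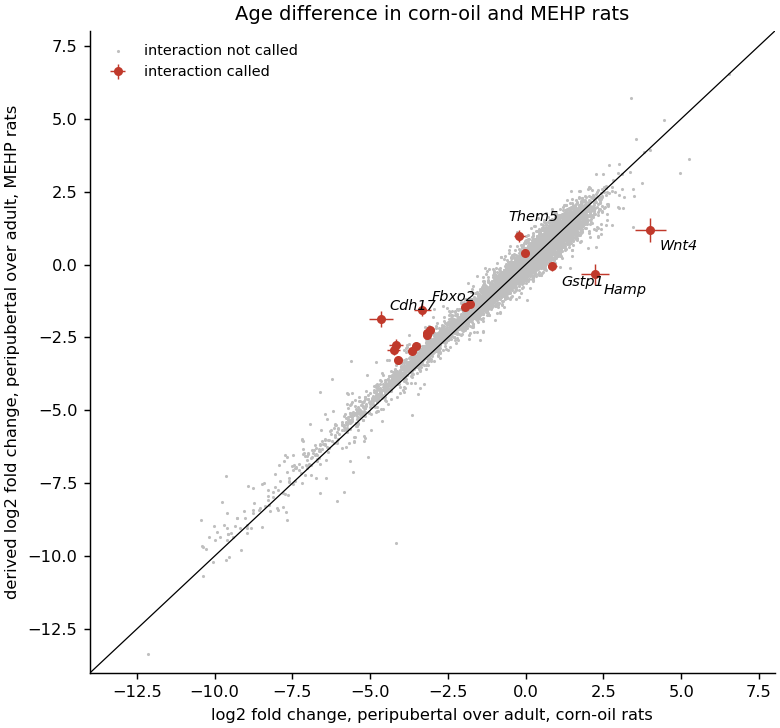
Log2 fold change, peripubertal over adult, in corn-oil rats (horizontal axis) and, derived, in MEHP rats (vertical axis); each point is one of the 13987 genes, red points are the 17 genes whose difference between both treatments was called, with SE bars, and the line marks equal values. The points follow the line, and the red points Wnt4, Hamp and Gstp1 lie below it while Cdh17, Fbxo2 and Them5 lie above it.

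The interaction term tests whether the age difference itself differed between both treatments, and 17 genes (0.122%) passed, with 1248 at an unadjusted p under 0.05. For 12 of the 17, the fall in corn-oil rats was the larger one. Phactr1, which binds actin and protein phosphatase 1, fell from 1003 to 86.2 in corn-oil rats and from 907 to 132 in MEHP rats. Cyfip2, a regulator of the actin skeleton, fell 12.5-fold (95% interval 10.7 to 14.7) in corn-oil rats, and its log2 difference in MEHP rats was -2.95 (SE 0.12). Wnt4, a secreted signal of gonad development, rose from 3.22 to 51.8 in corn-oil rats and from 79.8 to 180.1 in MEHP rats, so that its adult level differed between the treatments more than its peripubertal level. Hamp, hepcidin, and Gstp1, a glutathione transferase, rose in corn-oil rats, from 3.57 to 16.8 and from 238 to 428, and did not pass in MEHP rats, where the derived log2 differences were -0.34 (SE 0.36) and -0.06 (SE 0.15).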

How the data were processed

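Testis RNA of rats was read as Tag-seq, and the comparison uses 7 adult and 7 peripubertal corn-oil libraries, grouped by their labels. The authors deposited the base mean, a normalized signal averaged over all 26 rat libraries, with a log2 fold change and its SE on the log2 scale, a Wald score, and a p-value and adjusted p-value per gene for age, treatment and their interaction. FastQC, Bowtie2, DESeq2 and Rnor_6.0 are named in the submitters' processing notes; the sources used here give no order, version or setting. The deposited Wald test stands as the main test, with genes called at an adjusted p under 0.05. Depth per library and its limits on precision are unknown here, and the model fits of the authors could not be repeated.

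From these values, group levels were computed from the base mean and the 3 terms, the age difference in MEHP rats as the sum of 2 terms, with a variance equal to the interaction's minus that of the age term, and 95% intervals from the SE. Both derivations were checked on simulated counts for their arithmetic only. The simulation held no scaling between libraries and no DESeq2 fit, so it could not show an error that comes from those. Python 3.11.15 with numpy 2.4.6, pandas 2.3.3 and scipy 1.17.1 was used. The comparison, the gene lists and the tests were chosen with earlier results of these data known. Of 635 list genes, 49 had no name in the table and 493 reached a base mean of 10. Some genes belong to several lists, so the lists are not independent of each other. Named genes were the 12 largest rises and falls from a base mean of 100, the 5 largest from 10, the 5 smallest p each way, up to 6 called members of a list each way with its 3 of highest base mean, and genes with a called interaction; genes without an established symbol were left out, a few genes are not reported here, and Crem was named for its promoter.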

Additional observations from a re-analysis of the deposited data

Results flagged for a closer look

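The age difference differed between corn-oil and MEHP rats, by the deposited interaction test, for 17 genes, of which 16 are given here as the log2 age difference in MEHP rats minus that in corn-oil rats in the authors' deposited table. Genes of which the peripubertal testis was lower in corn-oil rats, and less so in MEHP rats, were Cdh17 at 2.79 (SE 0.46), Fbxo2 at 1.77 (SE 0.35), Stap2 at 1.41 (SE 0.30), Sctr at 1.33 (SE 0.28), Pknox2 at 0.75 (SE 0.18), Naalad2 at 0.84 (SE 0.19), Phactr1 at 0.76 (SE 0.16), Cyfip2 at 0.70 (SE 0.17), Glipr2 at 0.83 (SE 0.18), Enah at 0.50 (SE 0.12) and Tmem131l at 0.45 (SE 0.10) in the authors' deposited table. Them5 at 1.19 (SE 0.27) and Syne2 at 0.44 (SE 0.10) were not called in corn-oil rats in the authors' deposited table. Wnt4 at -2.84 (SE 0.65), Hamp at -2.57 (SE 0.58) and Gstp1 at -0.91 (SE 0.21) were higher in peripubertal corn-oil rats, and the difference was smaller in MEHP rats, again in the authors' deposited table. None of the 17 belongs to one of the 29 gene lists.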

How the results depend on the processing

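The split of higher and lower genes in corn-oil rats moved most with the scaling. With equal totals 9244 genes were higher and 3189 lower, and requiring at least a 2-fold difference as well gave 1629 and 2968. Under the other alternatives, which were other adjustments, a t distribution with 22 degrees of freedom, other base mean limits, centring on the median or on the reference genes, and MEHP rats, the counts stayed within 1.5 times. The sign of the median turned for 7 lists, all but the endothelial one with a median near 0. Equal totals gave 0.56 for adult Leydig genes and 0.57 for hormone receptors. Centring on the reference genes gave -0.0744 for macrophage, -0.0243 for junction, -0.0732 for retinoid and -0.0979 for PPAR genes, MEHP rats gave -0.0331 for macrophage genes and 0.0466 for hormone receptors, a base mean of at least 50 gave -0.38 for endothelial genes and 0.0493 for hormone receptors, and no base mean limit gave -0.11 for retinoid genes. Of 162 named genes, which leave out Etv5, equal totals reversed Ddx4 to 0.29, Mcm7 to 0.47, Syne2 to 0.63 and Them5 to 0.46. MEHP rats reversed Aurkc to -0.20, C1qb to -0.18, Gstp1 to -0.0622, Hamp to -0.34, Syne2 to 0.41 and Them5 to 0.98. Apart from the settings' own construction, the cause was not tested. The interaction was called for 16 genes with adjustment over all genes with a p. No paired analysis was possible because the tables hold no values of single libraries; for the same reason leaving out each replicate and a second count model were not run. Low base means limit precision: the median SE was 0.22 for genes with a base mean of 10 to 50 and 0.09 above.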
